A study of Arabidopsis thaliana with 3 samples.

Results

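The genes described here are 86 Arabidopsis thaliana nuclear genes that were lower in salt-treated than in untreated wild-type seedlings and lower again in salt-treated skip seedlings. They were chosen from 33557 gene identifiers, of which 33278 were nuclear and 15974 reached an FPKM of 5 in at least 1 of the 4 value columns. FPKM is the number of sequenced fragments scaled to transcript length and to library size. A gene was taken when the log2 ratio of FPKM + 1 was -1 or lower for salt against no salt in wild type, and also for skip against wild type under salt. These 86 are 8.89% of the 967 salt-lowered genes and 11.3% of the 760 genes lower in skip.

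Seedlings 11 days old, with the tissue labelled plant, had been kept for 4 h in MS liquid medium, with or without salt. The groups were skip seedlings with 200 mM NaCl (skip-S), wild type with 200 mM NaCl (WT-S) and wild type in the medium alone (WT-0). The labels name the genotype only as skip and wild type, with neither the skip allele nor the wild-type accession. An untreated skip group was not analysed here, so a level that is low in skip with salt cannot be told apart from a level that is low in skip without salt. Each group is 1 deposited value per gene that merges rep1 and rep2, so no value has an error, no difference can be tested, and "lower" or "higher" below states a size of at least 2-fold on FPKM + 1. The 2 tables were scaled separately: WT-S values were 1.105 times higher in the table with WT-0 than in the table with skip-S, so each WT-S level is given beside the group of its own table. WT-S is part of both comparisons, as the lower group of the first and the higher group of the second.

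SKIP is the plant form of the SNW/SKI-interacting protein, a component of the spliceosome, the machine that removes introns from pre-mRNA. Salt stress slows growth and lowers many transcripts of growth and cell-wall functions while osmotic-stress transcripts are induced. Specialised metabolites of Arabidopsis roots include glucosinolates, which myrosinases and related glucosidases activate on tissue damage, and terpenes and triterpenes, whose enzymes are in part encoded by genes that sit side by side in the genome.

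SKIP itself (AT1G77180) had 41.6 FPKM in skip-S, against 49.0 FPKM in WT-S, and 54.2 FPKM in WT-S, against 39.2 FPKM in WT-0. Its transcript therefore differed by less than 2-fold in either comparison (log2 ratios -0.23 and 0.46), and since the kind of mutation is not labelled, its level checks neither the label nor the protein. Over all 15974 genes the median log2 ratio was -0.09 for skip-S over WT-S and 0.02 for WT-S over WT-0. As background, 4.76% of those genes were lower in skip-S than in WT-S and 6.05% were lower in WT-S than in WT-0, against 2.03% and 11% that were higher. Of the salt-lowered genes, 827 lay within 2-fold in skip and 54, or 5.58%, were higher in skip. Both ratios chose the 86 genes and are given for them as a description.

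**Figure D1:**
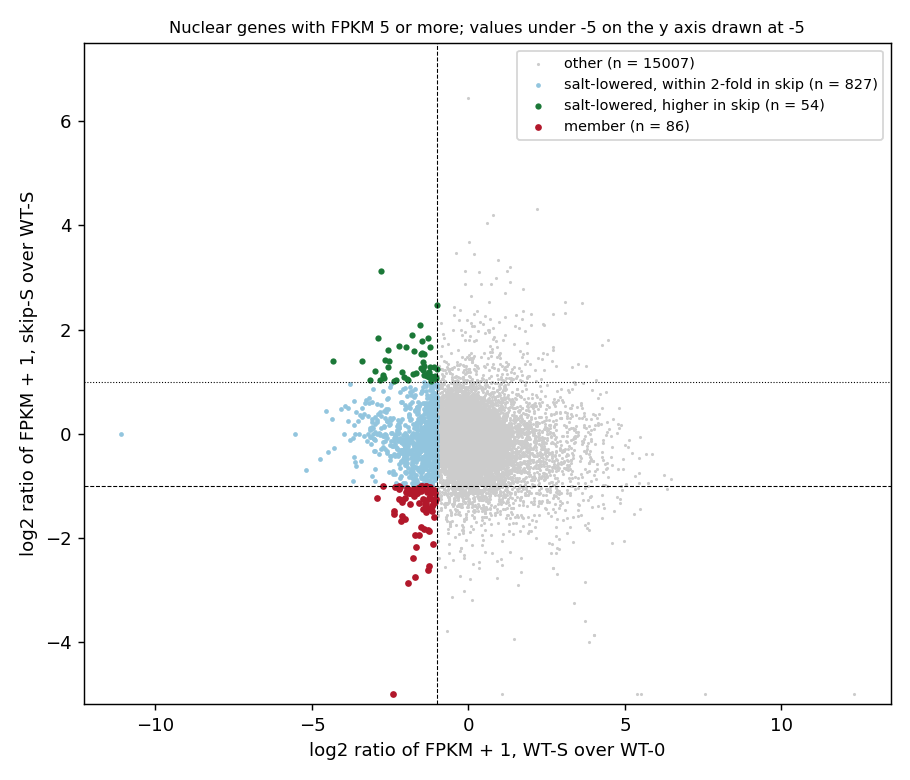
Log2 ratio of FPKM + 1 for skip-S over WT-S (vertical axis) against that for WT-S over WT-0 (horizontal axis), 1 point per nuclear gene with an FPKM of 5 or more. Red points are the 86 genes, light blue points the 827 salt-lowered genes within 2-fold in skip and green points the 54 salt-lowered genes higher in skip; dashed lines mark -1, the dotted line 1, and values under -5 are drawn at -5.

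The sequences that go with the findings are those upstream of some of the gene pairs that were low together. The genes of a pair lie next to each other, except CYP705A5 and THAS1, which have CYP708A2 between them. Each is the 250 bases before the annotated gene start, on the strand of the gene, from RefSeq's TAIR10.1 assembly, found by locus identifier. The deposited tables carry no coordinates. Capitals mark TATAAA, the TATA box core, and ACGTG, the core of the abscisic acid response element, on either strand, so that TTTATA and CACGT also stand in capitals. The first pair belongs to MLP328 (chr2:235675-235924, plus strand) and MLP329 (chr2:239419-239668, plus strand).
MLP328: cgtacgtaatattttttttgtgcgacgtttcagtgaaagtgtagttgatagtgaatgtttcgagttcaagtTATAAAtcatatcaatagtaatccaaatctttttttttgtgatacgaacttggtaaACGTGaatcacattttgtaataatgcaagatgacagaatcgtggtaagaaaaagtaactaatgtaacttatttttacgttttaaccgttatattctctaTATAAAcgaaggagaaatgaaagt
MLP329: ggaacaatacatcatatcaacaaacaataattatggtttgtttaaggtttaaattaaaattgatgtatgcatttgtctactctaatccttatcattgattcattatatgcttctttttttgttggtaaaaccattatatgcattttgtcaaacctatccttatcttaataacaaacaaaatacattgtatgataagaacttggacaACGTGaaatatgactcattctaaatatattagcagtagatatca
The next is shared by 2 copies of the 1,8-cineole synthase gene TPS-CIN. All 250 of 250 bases were identical between AT3G25820 (chr3:9438896-9439145, plus strand) and AT3G25830 (chr3:9447159-9447408, plus strand), so it is given once.
TPS-CIN: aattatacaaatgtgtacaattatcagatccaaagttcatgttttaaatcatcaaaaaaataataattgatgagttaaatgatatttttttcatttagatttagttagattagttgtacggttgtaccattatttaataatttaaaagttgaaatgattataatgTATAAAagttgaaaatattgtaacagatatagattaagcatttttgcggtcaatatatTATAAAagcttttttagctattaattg
The next pair lies before ML3 (AT5G23820, chr5:8030915-8031164, plus strand) and the adjacent AT5G23830 (chr5:8033415-8033664, plus strand).
ML3: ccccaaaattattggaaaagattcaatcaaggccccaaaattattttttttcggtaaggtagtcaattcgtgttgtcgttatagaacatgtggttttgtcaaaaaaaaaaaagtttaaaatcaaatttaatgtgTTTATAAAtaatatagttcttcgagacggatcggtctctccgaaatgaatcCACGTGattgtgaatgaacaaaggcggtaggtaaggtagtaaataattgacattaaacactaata
AT5G23830: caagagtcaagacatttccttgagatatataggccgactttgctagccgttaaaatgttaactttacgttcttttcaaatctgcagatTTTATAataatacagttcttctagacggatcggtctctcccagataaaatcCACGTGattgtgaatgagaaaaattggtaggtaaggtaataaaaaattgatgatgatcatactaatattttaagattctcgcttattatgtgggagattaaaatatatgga
The last pair comes from the thalianol gene cluster, before CYP705A5 (chr5:19434508-19434757, plus strand) and THAS1 (chr5:19456587-19456836, plus strand).
CYP705A5: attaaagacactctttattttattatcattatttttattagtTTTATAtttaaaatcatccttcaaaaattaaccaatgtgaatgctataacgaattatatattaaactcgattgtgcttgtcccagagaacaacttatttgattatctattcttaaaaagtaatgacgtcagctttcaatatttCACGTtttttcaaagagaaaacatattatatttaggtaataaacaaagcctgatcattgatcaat
THAS1: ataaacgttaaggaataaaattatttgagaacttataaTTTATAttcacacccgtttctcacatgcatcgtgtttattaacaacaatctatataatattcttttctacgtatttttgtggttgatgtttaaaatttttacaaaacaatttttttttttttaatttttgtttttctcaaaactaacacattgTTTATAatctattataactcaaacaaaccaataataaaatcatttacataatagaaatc

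The copies before the cineole synthases were the same sequence, whereas the other pairs were not. Compared position by position without gaps, 28.8% of bases matched between MLP328 and MLP329, 24% between ML3 and AT5G23830 and 32.8% between CYP705A5 and THAS1. The ML3 and AT5G23830 upstream regions shared 3 runs of at least 12 identical bases in the same order. The first run, agacggatcggtctctcc, is 18 bases long and begins 93 bases before the ML3 start and 140 bases before the AT5G23830 start. The second, aatccacgtgattgtgaatga, is 21 bases long, begins 69 and 115 bases before those starts, and holds the palindromic G-box CACGTG. Among the 27443 upstream regions of protein-coding genes searched, only those 2 held the first run and only those 2 held the second. The third run, of 13 bases, occurred in 3 regions. No run of 12 bases was shared between MLP328 and MLP329 or between CYP705A5 and THAS1.

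Across the 86 genes, 82 were protein-coding and 4 were not. In skip-S their levels ran from a listed 0 to 62.3 FPKM with a median of 2.32, against 1.13 to 2341 FPKM with a median of 8.52 in WT-S. In WT-S of the other table they ran from 1.24 to 2587 FPKM with a median of 9.42, against 6.38 to 13905 FPKM with a median of 29.9 in WT-0. The rule sets a high WT-0 level, since a gene must be 2-fold lower in each of 2 comparisons. The number of the 86 with 5 FPKM or more was 31 in skip-S, against 60 in WT-S, and 63 in WT-S, against 86 in WT-0.

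The median log2 ratio was -1.24 for skip and -1.52 for salt, and the salt ratio was the lower of the pair in 56 of the 86 genes. A level at least 4-fold lower was reached by 8 genes for skip, 2 of them non-coding genes listed at 0 in skip-S, and by 16 genes for salt. The 18S ribosomal RNA AT2G01010, one of those listed at 0, was the gene in both sets. Multiplying the FPKM ratios of the 2 tables puts skip-S at a median of 9.68% of WT-0, with the highest at 21.99% for the non-coding AT1G25175.

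**Figure D2:**
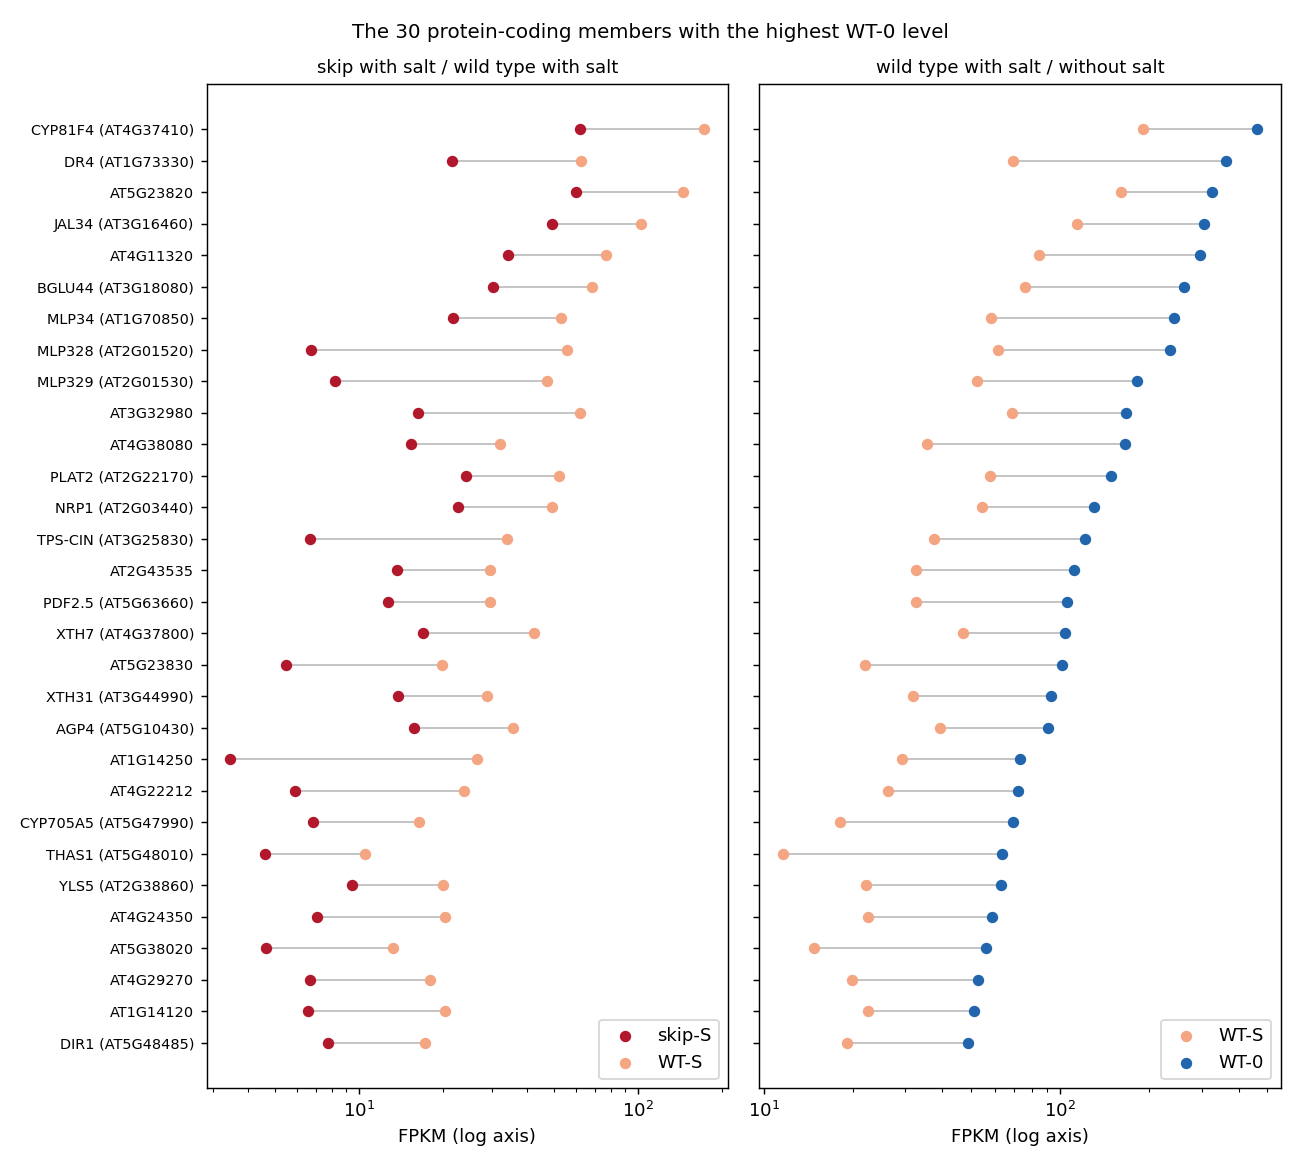
FPKM on log axes of the 30 protein-coding genes of the set with the highest WT-0 level, skip-S (dark red) and WT-S (orange) in the left panel and WT-S (orange) and WT-0 (blue) in the right. Each point is the deposited value of a merged group, without error; each line joins the values of a gene in a table, from CYP81F4 at the top to DIR1 at the bottom.

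Enzymes and partners of glucosinolate defence included the most abundant protein-coding gene of the set. CYP81F4 (AT4G37410) is the cytochrome P450 that hydroxylates indole glucosinolate on the way to its 1-methoxy form. It had 62.3 FPKM in skip-S, against 173 FPKM in WT-S, and 191 FPKM in WT-S, against 461 FPKM in WT-0 (log2 ratios -1.46 and -1.27). An overlapping locus, AT4G37409, shares 85.1% of its 50-base words, so the division of reads between the 2 loci is uncertain. AT4G37409 was listed at 0.0165 FPKM in skip-S, against 7.93 FPKM in WT-S, and 8.73 FPKM in WT-S, against 13.1 FPKM in WT-0. These levels depend on the same division. IGMT5 (AT1G76790), the methyltransferase that acts after CYP81F4, lay just outside the rule. It had 32.8 FPKM in skip-S, against 99.7 FPKM in WT-S, and 110 FPKM in WT-S, against 219 FPKM in WT-0 (log2 ratios -1.57 and -0.98).

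A list of 7 genes for the modification of indole glucosinolates, assembled after the values had been seen, did not move as a whole. Lower in skip were 3, namely CYP81F4, IGMT5 and IGMT1, and lower with salt was 1, CYP81F4. CYP81F3 and IGMT2 had skip ratios of -0.88 and -0.22, and CYP81F1 and CYP81F2 had skip ratios of 0.61 and 0.52.

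The list for glucosinolate synthesis and its MYB regulators holds genes of the indole branch and of the methionine-derived aliphatic branch, and none of the 86. Of 19 genes above the floor, 0 were lower and 5 higher in skip, and 17 were lower and 1 higher with salt. The 5 genes higher in skip, CYP79F1, CYP79F2, BCAT4, MAM3 and BAT5, belong to the aliphatic branch. Other genes of that branch stayed within 2-fold in skip, among them MYB29, CYP83A1, MAM1 and SOT17, with skip ratios of -0.31, 0.35, 0.56 and -0.15. Genes of the indole branch, which supplies CYP81F4, stayed within 2-fold in skip: CYP79B2, CYP79B3 and CYP83B1 had skip ratios of -0.03, -0.34 and 0.33, and the regulators MYB34 and MYB51 had skip ratios of -0.58 and -0.42. Over all 20 genes of the list the median log2 ratios were 0.34 for skip and -1.89 for salt. Their summed level was 617 FPKM in skip-S, against 456 FPKM in WT-S, and 504 FPKM in WT-S, against 1949 FPKM in WT-0.

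The endoplasmic reticulum body is a store of the glucosidase PYK10 in roots and seedlings, and the set holds JAL34 and ML3 of its components and partners. PYK10 itself (AT3G09260) had 223 FPKM in skip-S, against 443 FPKM in WT-S, and 489 FPKM in WT-S, against 1670 FPKM in WT-0. Its skip ratio of -0.99 left it just outside the rule. JAL34 (AT3G16460), a jacalin-related lectin found in complexes with PYK10, had 49.4 FPKM in skip-S, against 103 FPKM in WT-S, and 113 FPKM in WT-S, against 305 FPKM in WT-0 (log2 ratios -1.04 and -1.42). It shares 21.9% of its 50-base words with the overlapping lectin gene AT3G16470. ML3, an MD-2-related lipid-recognition protein localised to these bodies, had 60.1 FPKM in skip-S, against 145 FPKM in WT-S, and 160 FPKM in WT-S, against 325 FPKM in WT-0 (log2 ratios -1.25 and -1.02). A list of 10 such genes was assembled after the values had been seen and holds 2 genes of the set, so its counts describe these genes alone. Over all genes above the floor, 4.76% were lower in skip, 6.05% were lower with salt, and the median skip ratio was -0.09. In the list 3 were lower in skip and 8 lower with salt, and all 10 skip ratios were below 0. The third gene lower in skip was the glucosidase gene BGLU22 (AT1G66280), with 15.9 FPKM in skip-S, against 79.4 FPKM in WT-S, and 87.8 FPKM in WT-S, against 106 FPKM in WT-0. BGLU22 was lower for skip alone (log2 ratios -2.25 and -0.27). NAI2, which forms the bodies, and the transcription factor NAI1, which regulates them, had skip ratios of -0.74 and -0.71 and salt ratios of -1.56 and -1.08. BGLU44 (AT3G18080), a further beta-glucosidase, had 30.2 FPKM in skip-S, against 68.6 FPKM in WT-S, and 75.8 FPKM in WT-S, against 262 FPKM in WT-0 (log2 ratios -1.16 and -1.77).

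Terpene and triterpene enzymes formed the next group. TPS-CIN makes 1,8-cineole, a root monoterpene. Its copy AT3G25830 had 6.66 FPKM in skip-S, against 33.9 FPKM in WT-S, and 37.5 FPKM in WT-S, against 121 FPKM in WT-0 (log2 ratios -2.19 and -1.66). Its copy AT3G25820 had 1.75 FPKM in skip-S, against 8.61 FPKM in WT-S, and 9.51 FPKM in WT-S, against 29.1 FPKM in WT-0 (log2 ratios -1.80 and -1.52). The copies share 98.1% and 83.3% of their 50-base words, so the division of reads between them is uncertain and they amount to 1 measurement. The flanking genes did not share the pattern, with log2 ratios between -0.18 and 0.25 for AT3G25805 and AT3G25840 in both comparisons. AT3G25810, another terpene synthase gene of this stretch, was listed at 0 in all columns.

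Thalianol is a root triterpene that the cyclase THAS1 makes from oxidosqualene and that CYP708A2 and CYP705A5 oxidise further. THAS1 had 4.62 FPKM in skip-S, against 10.501 FPKM in WT-S, and 11.6 FPKM in WT-S, against 63.7 FPKM in WT-0 (log2 ratios -1.03 and -2.36). CYP705A5 had 6.87 FPKM in skip-S, against 16.4 FPKM in WT-S, and 18.1 FPKM in WT-S, against 69.3 FPKM in WT-0 (log2 ratios -1.14 and -1.88). CYP708A2, which lies between them, was lower with salt (log2 ratio -2.98) and stayed within 2-fold for skip, at 2.86 FPKM in skip-S, against 5.13 FPKM in WT-S (log2 ratio -0.67). The acyltransferase genes AT5G47980 and AT5G47950 of this cluster were at most 0.419 FPKM in skip-S and in WT-S of the same table, too low for a further decrease to pass the rule. All 5 genes of the cluster were lower with salt, although AT5G47950, with 4.78 FPKM in WT-0, was under the floor, and 2 of 5 were also lower in skip.

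The marneral cluster makes a second triterpene with the cyclase MRN1 and the P450s CYP71A16 and CYP705A12. CYP71A16 had 1.06 FPKM in skip-S, against 3.25 FPKM in WT-S, and 3.59 FPKM in WT-S, against 16.8 FPKM in WT-0 (log2 ratios -1.04 and -1.95). CYP705A12 had 0.728 FPKM in skip-S, against 3.41 FPKM in WT-S, and 3.76 FPKM in WT-S, against 9.34 FPKM in WT-0 (log2 ratios -1.35 and -1.12). MRN1 had 0.618 FPKM in skip-S, against 2.23 FPKM in WT-S, and 2.47 FPKM in WT-S, against 3.83 FPKM in WT-0. Its ratios of -0.998 and -0.48 did not pass, and it was under the FPKM floor of 5 in all 4 columns. The neighbour AT5G42570 on the other side was higher with salt (log2 ratio 1.64).

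Major latex-like proteins, relatives of the Bet v 1 allergens with a ligand-binding pocket, held the protein-coding gene with the lowest skip ratio. MLP328 (AT2G01520) had 6.76 FPKM in skip-S, against 55.6 FPKM in WT-S, and 61.4 FPKM in WT-S, against 235 FPKM in WT-0 (log2 ratios -2.87 and -1.92). Its neighbour MLP329 (AT2G01530) had 8.20 FPKM in skip-S, against 47.3 FPKM in WT-S, and 52.3 FPKM in WT-S, against 182 FPKM in WT-0 (log2 ratios -2.39 and -1.78). The genes on either side differed from them: AT2G01510 stayed within 2-fold in both comparisons, and AT2G01540 had a skip ratio of -0.998, just outside the rule, and a salt ratio of 0.02. MLP34 (AT1G70850) had 21.8 FPKM in skip-S, against 52.9 FPKM in WT-S, and 58.5 FPKM in WT-S, against 243 FPKM in WT-0 (log2 ratios -1.24 and -2.04). MLP165 (AT1G35260) had 1.79 FPKM in skip-S, against 9.73 FPKM in WT-S, and 10.8 FPKM in WT-S, against 34.1 FPKM in WT-0 (log2 ratios -1.94 and -1.578). Of 7 genes of this family above the floor, 5 were lower in skip, 5 were lower with salt and 4 were both. MLP28 (AT1G70830) passed neither, with ratios of -0.79 and -0.16, MLP43 (AT1G70890) was lower with salt alone, with ratios of -0.34 and -1.19, and MLP423 (AT1G24020) was lower in skip alone, with ratios of -1.0003 and -0.72.

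MD-2-related proteins, small lipid-binding proteins, showed the same numbers: of 8 genes above the floor, 5 were lower in skip, 5 lower with salt and 4 both. Besides ML3 these were its neighbours AT5G23830 and AT5G23840 and the unlinked AT2G16005. AT5G23830 had 5.49 FPKM in skip-S, against 19.9 FPKM in WT-S, and 21.9 FPKM in WT-S, against 101 FPKM in WT-0 (log2 ratios -1.69 and -2.16). AT5G23840 had 0.577 FPKM in skip-S, against 2.34 FPKM in WT-S, and 2.58 FPKM in WT-S, against 12.01 FPKM in WT-0 (log2 ratios -1.08 and -1.86). AT2G16005 had 0.332 FPKM in skip-S, against 2.996 FPKM in WT-S, and 3.31 FPKM in WT-S, against 17.7 FPKM in WT-0 (log2 ratios -1.5848 and -2.12). The skip-S levels of AT5G23840 and AT2G16005 are each estimated to rest on under 20 fragments. The genes flanking the ML3 trio stayed within 2-fold or were higher with salt: AAP7, an amino acid permease, had ratios of -0.32 and -0.49, and AT5G23850 had ratios of 0.25 and 1.48. Of the remaining 4 family members, AT3G11780 and AT3G44100 were within 2-fold in both comparisons, AT2G26370 was lower in skip alone (log2 ratio -1.60) and AT1G45015 lower with salt alone (log2 ratio -2.59).

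**Figure D3:**
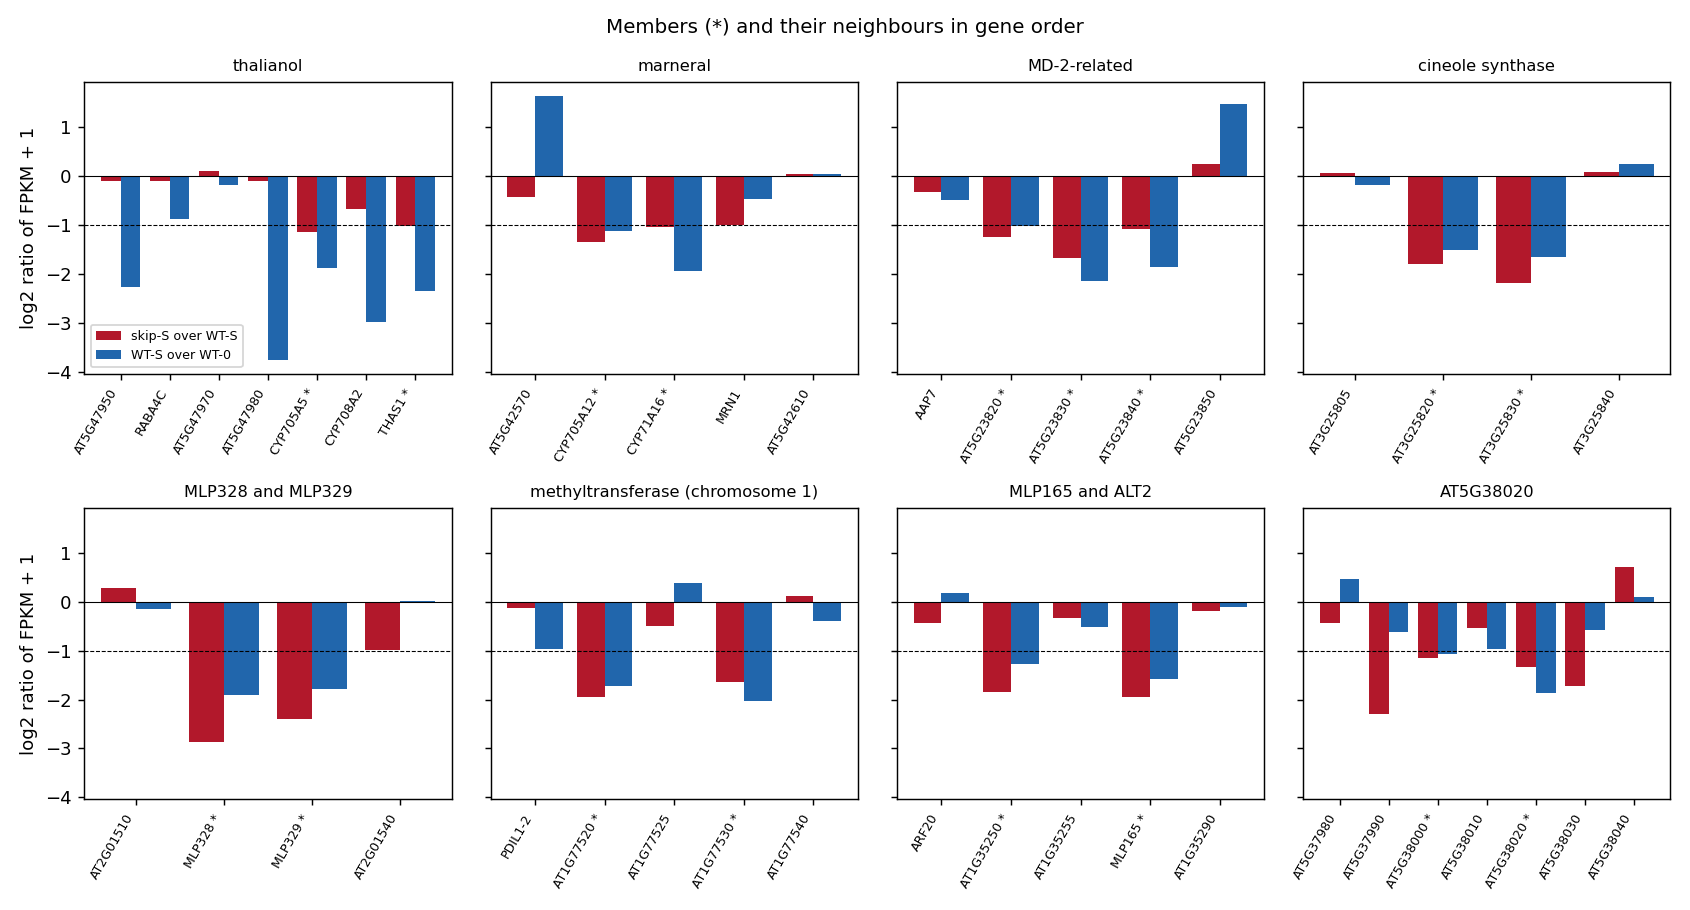
Log2 ratios of FPKM + 1 for skip-S over WT-S (red) and WT-S over WT-0 (blue) of genes in chromosomal order in 8 stretches chosen after the values had been seen; an asterisk marks the 86 genes, the dashed line is -1, and genes listed at 0 in all columns are not drawn. Bars past -1 in both colours are the marked genes, and the genes beside ML3 to AT5G23840, the cineole synthases and MLP328 with MLP329 do not reach -1 in either colour.

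Among the 82 protein-coding genes, 5 pairs were immediate neighbours and held 9 genes, and 10 pairs had at most 4 genes between them and held 19. The pairs on the same strand numbered 9 of those 10. Among the pairs are the cineole synthase copies, which are not separate measurements. Beyond the groups above, the O-methyltransferase genes AT1G77520 and AT1G77530 were low together. AT1G77520 had 0.853 FPKM in skip-S, against 6.13 FPKM in WT-S, and 6.77 FPKM in WT-S, against 24.6 FPKM in WT-0 (log2 ratios -1.94 and -1.72). AT1G77530 had 0.420 FPKM in skip-S, against 3.42 FPKM in WT-S, and 3.78 FPKM in WT-S, against 18.6 FPKM in WT-0 (log2 ratios -1.64 and -2.04). ALT2 (AT1G35250), an acyl-lipid thioesterase gene near MLP165, had 0.922 FPKM in skip-S, against 5.93 FPKM in WT-S, and 6.55 FPKM in WT-S, against 17.3 FPKM in WT-0 (log2 ratios -1.85 and -1.28). Around the methyltransferase gene AT5G38020, with ratios of -1.34 and -1.86, and the dehydrogenase gene AT5G38000, with ratios of -1.14 and -1.08, 2 of 5 other genes of the stretch were lower in skip without being 2-fold lower with salt. The methyltransferase gene AT5G37990 had 10.3 FPKM in skip-S, against 54.3 FPKM in WT-S (log2 ratio -2.29), and a salt ratio of -0.62. The MATE transporter gene AT5G38030 had 2.39 FPKM in skip-S, against 10.2 FPKM in WT-S (log2 ratio -1.73), and a salt ratio of -0.58. The others, AT5G37980, AT5G38010 and AT5G38040, had skip ratios of -0.43, -0.53 and 0.71.

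Genes for inhibitor, cysteine-rich peptide, papain-type protease and lipid-transfer proteins were also in the set. DR4 (AT1G73330), drought-repressed 4, had 21.6 FPKM in skip-S, against 62.5 FPKM in WT-S, and 69.1 FPKM in WT-S, against 362 FPKM in WT-0 (log2 ratios -1.49 and -2.37). Defensin and knottin proteins are cysteine-rich peptides, of which 17 genes were above the floor; 7 of them were lower in skip, 9 lower with salt and 4 both. Those 4 were PDF2.5, PDF1.5, AT2G43535 and AT4G22212. AT4G22212 had 5.92 FPKM in skip-S, against 23.7 FPKM in WT-S, and 26.2 FPKM in WT-S, against 72.2 FPKM in WT-0 (log2 ratios -1.84 and -1.43). CP2 (AT4G11320), a papain-type cysteine protease, had 34.4 FPKM in skip-S, against 76.8 FPKM in WT-S, and 84.8 FPKM in WT-S, against 297 FPKM in WT-0 (log2 ratios -1.14 and -1.80). DIR1 (AT5G48485), a lipid-transfer protein of systemic acquired resistance, had ratios of -1.06 and -1.32, but all of its 50-base words lie within the overlapping AT5G48480. AT5G48480 itself had 39.7 FPKM in skip-S, against 46.1 FPKM in WT-S, and 51.0 FPKM in WT-S, against 48.5 FPKM in WT-0, so the DIR1 values are uncertain.

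Cell-wall enzymes were present, although most genes of their families were not lower in skip. Over all genes above the floor, 4.76% were lower in skip and 6.05% were lower with salt. Of the wall families described here, only expansins lay under the first of these shares, and the differences were not tested. Xyloglucan endotransglucosylases cut and rejoin the xyloglucan that ties cellulose fibrils together. Of 22 such genes above the floor, 12 were lower with salt and 2, XTH7 and XTH8, were also lower in skip. XTH7 (AT4G37800) had 16.9 FPKM in skip-S, against 42.6 FPKM in WT-S, and 47.1 FPKM in WT-S, against 104 FPKM in WT-0 (log2 ratios -1.28 and -1.12). XTH31 (AT3G44990), which carries another product name and is not among the 22, had 13.8 FPKM in skip-S, against 28.8 FPKM in WT-S, and 31.8 FPKM in WT-S, against 92.8 FPKM in WT-0 (log2 ratios -1.01 and -1.51).

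Class III peroxidases, which act on wall phenolics with hydrogen peroxide, numbered 51 above the floor: 6 were lower in skip, 23 lower with salt and 3 both. The most abundant of the 3, AT3G32980, had 16.3 FPKM in skip-S, against 62.0 FPKM in WT-S, and 68.6 FPKM in WT-S, against 167 FPKM in WT-0 (log2 ratios -1.87 and -1.27). The others, AT2G35380 and AT4G11290, had skip ratios of -1.14 and -1.01 and salt ratios of -1.90 and -1.36. Expansins, which loosen walls, had 7 of 22 genes lower with salt and 0 of 22 lower in skip. Arabinogalactan proteins had 14 of 41 lower with salt, 4 of 41 lower in skip and 1 in both, AGP4 (AT5G10430), with ratios of -1.13 and -1.19. AGP4 shares 33.2% of its 50-base words with the overlapping AT5G10435. Lipid-transfer and protease-inhibitor proteins had 31 of 93 lower with salt, 12 lower in skip and 2 in both. One of these, AT5G46890, had the lowest salt ratio of the set: 0.847 FPKM in skip-S, against 3.34 FPKM in WT-S, and 3.69 FPKM in WT-S, against 34.5 FPKM in WT-0 (log2 ratios -1.23 and -2.92). It shares 26.8% of its 50-base words with AT5G46900, and its skip-S level is estimated to rest on under 20 fragments.

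**Figure D4:**
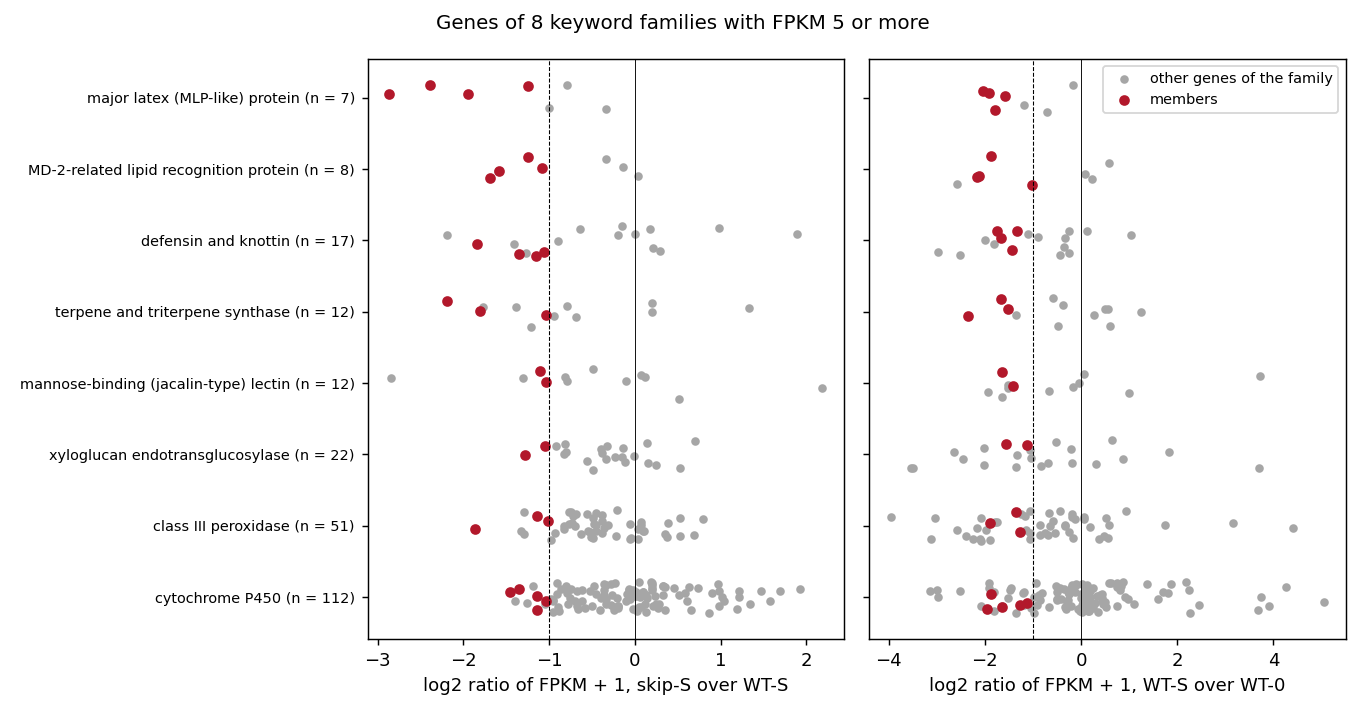
Log2 ratios of FPKM + 1 for skip-S over WT-S (left) and WT-S over WT-0 (right) of the genes with an FPKM of 5 or more in 8 families found by keywords in the product name; red points are genes of the set of 86, grey points other genes of the family, the dashed line is -1, and vertical scatter within a row has no meaning. The set holds 4 of 7 major latex-like and 4 of 8 MD-2-related genes, but 3 of 51 peroxidases and 5 of 112 P450s; the first 5 families from the top were chosen after the values had been seen.

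Peptide and hormone genes of the set, picked after their values had been seen, included RALF1, CLE2 and IPT3. RALF1 (AT1G02900), a secreted peptide that restrains cell elongation, had 6.59 FPKM in skip-S, against 14.3 FPKM in WT-S, and 15.8 FPKM in WT-S, against 42.1 FPKM in WT-0 (log2 ratios -1.01 and -1.36). CLE2 (AT4G18510), a CLAVATA3-related peptide, had 0.932 FPKM in skip-S, against 2.87 FPKM in WT-S, and 3.17 FPKM in WT-S, against 18.5 FPKM in WT-0 (log2 ratios -1.003 and -2.23). IPT3 (AT3G63110), an isopentenyltransferase of cytokinin synthesis, had 1.52 FPKM in skip-S, against 4.44 FPKM in WT-S, and 4.91 FPKM in WT-S, against 20.8 FPKM in WT-0 (log2 ratios -1.11 and -1.89). Of 7 type-A response regulators, which cytokinin induces, 4 were lower with salt, 0 were lower in skip and 1 was higher in skip.

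Of 864 transcription factor genes above the floor, 42 were lower in skip, 33 lower with salt and 0 in the set. RL3 (AT4G36570), a RADIALIS-like MYB-related protein that the family's keywords missed, had 0.116 FPKM in skip-S, against 2.24 FPKM in WT-S, and 2.47 FPKM in WT-S, against 17.2 FPKM in WT-0 (log2 ratios -1.54 and -2.39). The skip-S level of RL3 is estimated to rest on under 20 fragments. Kinase and receptor-like genes numbered 838 and membrane transporters 459, with 21 and 15 genes lower in skip, 20 and 29 lower with salt and 0 in the set. The set is 0.538% of all 15974 genes above the floor. Counts of 0 in these families lie below that share, but the difference was not tested and the keywords can miss genes. No result about these families is drawn from them.

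Keywords in the product name placed 47 of the 86 in a family, and family counts are to be read beside the 0.538% of all genes above the floor that are in the set. Small-molecule methyltransferases had 16 of 120 genes lower in skip, 15 lower with salt and 5 in both, and cytochrome P450s had 9 of 112, 23 and 5. Jacalin-type lectins had 4 of 12 lower in skip, 6 lower with salt and 2 in both, JAL34 and AT2G25980. The CASP-like membrane proteins had 3 of 29, 11 and 2, and TRAF-like proteins had 3 of 20, 9 and 2. Extensins and proline-rich wall proteins had 8 of 120, 27 and 2, and pectin enzymes 7 of 85, 18 and 1. SAUR proteins, which auxin induces, had 4 of 25, 7 and 1, the last being SAUR37 (AT4G31320), with ratios of -1.33 and -1.588. GDSL lipases had 3 of 43 lower in skip, 7 lower with salt and 0 in both, and UDP-glycosyltransferases had 7 of 90, 7 and 0.

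Genes outside these families included the following. AT1G14250, a GDA1/CD39 nucleoside phosphatase, had 3.46 FPKM in skip-S, against 26.5 FPKM in WT-S, and 29.3 FPKM in WT-S, against 73.3 FPKM in WT-0 (log2 ratios -2.62 and -1.29). AT4G17470, an alpha/beta-hydrolase, had 3.63 FPKM in skip-S, against 19.0 FPKM in WT-S, and 21.0 FPKM in WT-S, against 47.6 FPKM in WT-0 (log2 ratios -2.11 and -1.14). AT4G13575, an uncharacterised protein, had 0.0957 FPKM in skip-S, against 5.37 FPKM in WT-S, and 5.94 FPKM in WT-S, against 15.7 FPKM in WT-0 (log2 ratios -2.54 and -1.26). Its skip-S level is estimated to rest on under 20 fragments. QQS (AT3G30720), an Arabidopsis orphan gene linked to starch content, had 1.42 FPKM in skip-S, against 4.70 FPKM in WT-S, and 5.19 FPKM in WT-S, against 13.5 FPKM in WT-0 (log2 ratios -1.24 and -1.23). LPA19 (AT1G05385), a photosystem II assembly factor, had ratios of -1.594 and -1.11.

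Several wall-associated and uncharacterised genes were among the lowest for salt. AT4G38080, a hydroxyproline-rich glycoprotein, had 15.3 FPKM in skip-S, against 32.1 FPKM in WT-S, and 35.5 FPKM in WT-S, against 165 FPKM in WT-0 (log2 ratios -1.02 and -2.19). AIR1 (AT4G12550), named for its induction by auxin in root cultures, had 1.84 FPKM in skip-S, against 6.05 FPKM in WT-S, and 6.68 FPKM in WT-S, against 32.6 FPKM in WT-0 (log2 ratios -1.31 and -2.13). AIR1 shares 35.4% of its 50-base words with the overlapping AT4G12555. AT4G20390, a CASP-like membrane protein, had 1.64 FPKM in skip-S, against 5.34 FPKM in WT-S, and 5.90 FPKM in WT-S, against 31.5 FPKM in WT-0 (log2 ratios -1.26 and -2.23). In all of these the salt ratio was the lower of the pair, as it was for AT4G01390, a TRAF-like protein, with ratios of -1.06 and -2.22, and AT5G66985, uncharacterised, with ratios of -1.01 and -2.72. AT5G66985 had 0.343 FPKM in skip-S, against 1.71 FPKM in WT-S, near the lowest level from which the rule can be met. Its level in skip-S is also estimated to rest on under 20 fragments. AT4G17215, a pollen Ole e 1 family protein, AT1G76240, of unknown function, and AT1G31690, a copper amine oxidase, lay close to the skip threshold, with skip ratios of -1.03, -1.04 and -1.03.

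The remaining genes of the set had skip ratios between -1.50 and -1.07 and salt ratios between -2.11 and -1.102. They include NRP1 (AT2G03440, nodulin-related), PLAT2 (AT2G22170, a PLAT-domain protein), the subtilase SBT4.12, the annexin ANNAT7, the thioredoxin WCRKC1, the glutathione transferase ATGSTF13 and the P450 CYP78A8. The most abundant, PLAT2, had 24.3 FPKM in skip-S, against 52.2 FPKM in WT-S, and 57.7 FPKM in WT-S, against 149 FPKM in WT-0 (log2 ratios -1.07 and -1.35).

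The 4 non-coding genes are the least certain. The 18S ribosomal RNA gene AT2G01010 was listed at 0 in skip-S, against 2341 FPKM in WT-S, and had 2587 FPKM in WT-S, against 13905 FPKM in WT-0. It shares 94.3% of its 50-base words with AT3G41768, which was listed at 0 in skip-S, against 4608 FPKM in WT-S, and had 5092 FPKM in WT-S, against 0 in WT-0. The 2 ribosomal loci thus moved in opposite directions between WT-S and WT-0, and no fold is given against a listed 0. The snoRNA SNOR77 was listed at 0 in skip-S, against 5.74 FPKM in WT-S, and had 6.34 FPKM in WT-S, against 23.2 FPKM in WT-0; its transcript of 133 nt is the shortest of the set. AT2G23672 was also listed at 0 in skip-S, against 1.13 FPKM in WT-S, and overlaps AT2G23670. AT1G25175 had 52.7 FPKM in skip-S, against 112 FPKM in WT-S, and shares 76.8% of its words with AT1G25098. Including these, 13 of the 86 share at least 20% of their words with another locus, 7 of them with a locus that overlaps them in the genome.

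The 14 lists taken for roots, nutrients, hormones and photosynthesis hold 169 genes and none of the 86. In those lists 50 genes above the floor were lower with salt, and 0 of the 50 were also lower in skip. A gene under 1 FPKM in WT-S cannot pass the skip rule on FPKM + 1, which leaves 45 of the 50 that could pass, and 879 of all 967 salt-lowered genes, of which the 86 are 9.78%. The lists were chosen with earlier results known, so their counts describe these genes alone. Of 17 root hair genes, 13 were above the floor, and of these 0 were lower in skip and 12 lower with salt. The regulator RHD6 had a skip ratio of -1.04 but was under the floor in all 4 columns, with 1.64 FPKM in skip-S, against 4.43 FPKM in WT-S. The root hair wall proteins EXT13 and AGP22 had salt ratios of -4.36 and -4.55 and skip ratios of 0.28 and 0.44. AGP22 (AT5G53250) had 1.58 FPKM in skip-S, against 0.907 FPKM in WT-S, and 1.002 FPKM in WT-S, against 46.1 FPKM in WT-0. AGP22 is among the 5 genes that could not pass for skip.

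The nutrient and hormone lists held fewer salt-lowered genes. Above the floor, lower in skip and with salt were 0 and 2 of 17 nitrate and ammonium genes, 0 and 1 of 4 phosphate genes, 0 and 0 of 7 sulfate genes and 0 and 1 of 2 iron uptake genes. The iron regulator FIT (AT2G28160) had a skip ratio of -1.006 but was under the floor, with 1.56 FPKM in skip-S, against 4.14 FPKM in WT-S. Lower in skip and with salt were also 1 and 0 of 9 flavonoid genes, 1 and 2 of 15 auxin repressors and carriers, 1 and 4 of 17 aquaporins, 3 and 0 of 9 jasmonate genes and 0 and 1 of 4 gibberellin and GASA genes. None of these genes was lower in both.

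Marker lists show which tissues the libraries sampled. The summed root hair level was 34.4 FPKM in skip-S, against 33.1 FPKM in WT-S, and 36.6 FPKM in WT-S, against 334 FPKM in WT-0. Of 11 genes of the Casparian strip and endodermis, 9 were above the floor, of which 0 were lower in skip and 6 with salt, and the sum was 43.3 FPKM in skip-S, against 50.9 FPKM in WT-S, and 56.3 FPKM in WT-S, against 133 FPKM in WT-0. For 9 shoot photosynthesis genes, none passed either rule, and the sum was 30730 FPKM in skip-S, against 34402 FPKM in WT-S, and 38021 FPKM in WT-S, against 48937 FPKM in WT-0. No gene of these 3 lists was listed at 0 in any column. Both root and shoot RNA were therefore measured in all groups. Root hair and endodermis markers were lower with salt together with the set, and their part in the salt ratios of the 86 genes was not tested. In whole seedlings, fewer cells of a type and less RNA per cell cannot be told apart.

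Gene structure was not used by the rule. The 86 genes had a median of 3 exons, against 3 for the salt-lowered genes within 2-fold in skip, 2 for those higher in skip and 5 for all genes above the floor. Genes with 10 or more exons made up 3.49% of the set, against 7.26%, 11.1% and 20.3% in those sets. Genes without introns made up 23.3% of the set, against 29.7%, 16.7% and 14.1%. The median transcript length was 1222 nt, against 1373, 1472 and 1711 nt, and the median GC content 40.3%, against 40.8%, 39.8% and 41.3%. Few-exon, short transcripts were therefore shared with the salt-lowered genes within 2-fold in skip. Those higher in skip also had a low median exon number, but their 16.7% without introns lay near the 14.1% of all genes above the floor. A total of 20 of the 86 have no annotated intron in their longest transcript. Among the 20 are AT2G01010, SNOR77 and AT2G23672, listed at 0 in skip-S, and DIR1, whose values are uncertain. Whether splicing has a part in the skip ratios was not tested.

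**Figure D5:**
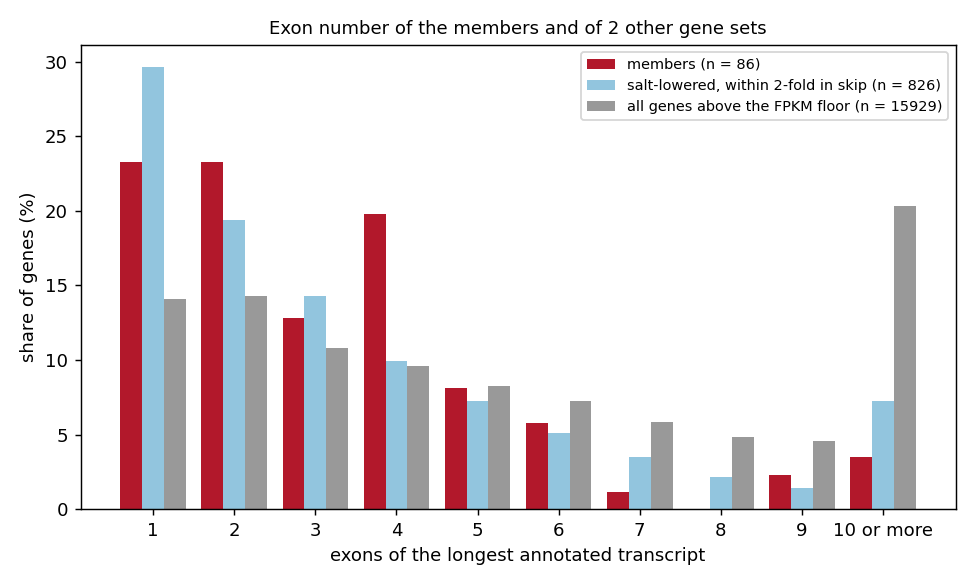
Share of genes (%) by number of exons in the longest annotated transcript for the 86 genes (red), the 826 annotated salt-lowered genes within 2-fold in skip (light blue) and the 15929 annotated genes above the FPKM floor (grey). Genes with 10 or more exons make up 3.49% of the red bars, 7.26% of the light blue bars and 20.3% of the grey bars.

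Upstream regions of 82 of the 86 genes were searched on both strands for short motifs. TATAAA occurred in 59.8% of them, against 49.6% of the 800 regions of salt-lowered genes within 2-fold in skip and 47.3% of all 27443 regions. The site II element TGGGCC, common before ribosomal protein and other housekeeping genes, occurred in 5 of 82, or 6.10%, against 72 of 800 and 13.7%. ACGTG occurred in 28.05%, against 26.5% and 22.9%, and CACGTG, which contains ACGTG, in 7 of 82, or 8.54%, against 4.13% and 6.49%. Among the 15725 regions of genes above the floor, CACGTG occurred in 7.97%, near the share of the set. TATAAA occurred there in 46.2%, TGGGCC in 17.2% and ACGTG in 24.6%. None of these differences was tested. TTGAC, the W-box core of WRKY factors, occurred in 47.6%, against 44.9% and 44.9%. CCGAC, the dehydration-responsive core, occurred in 9.76%, against 9.75% and 11.97%. The auxin response element TGTCTC occurred in 9 of 82 regions, against 88 of 800 and 10.9% of all. GAGAC, the sulfur response core, which also matches within each TGTCTC on the other strand, occurred in 25.6%, against 23.8% and 25.8%. The evening element AAAATATCT occurred in 2 of 82 regions, the CCA1 site AAAAATCT in 3 and the telo-box AAACCCTA in 2, against 2.36%, 6.69% and 4.49% of all regions. In the sequences printed above, TATAAA ends 19 bases before the start of MLP328 and 22 bases before the starts of the cineole synthases, and the G-box begins 65 bases before the ML3 start and 111 bases before the AT5G23830 start. These matches are letters in a window of 250 bases and say nothing of binding.

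The thresholds cut through a continuous range. Within 0.05 of the skip threshold lay 14 of the 86 genes, and within 0.10 of it 25, against 1 and 4 for the salt threshold. Just inside the skip threshold were CLE2, XTH31, YLS5 (AT2G38860), AT4G11290 and RALF1, with skip ratios between -1.010 and -1.003. Just outside were AT1G18980, AT2G23540, MIR822, PYK10 and ASP4, with skip ratios between -0.998 and -0.982. For salt, ML3 and DRT100 (AT3G12610) were just inside, at -1.02 and -1.07, and AT3G58550, IGMT5, AT1G14240, AT2G28720 and CYP71A27 just outside, between -0.99 and -0.98. At the FPKM floor, AT2G23672 was the lowest gene inside, with 6.38 FPKM in WT-0, and AT5G46871, with 4.11 FPKM in WT-0, was the gene outside.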

How the data were processed

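Libraries of total RNA from 3 groups were analysed as deposited FPKM values, 1 value per gene and group that merges rep1 and rep2, in 2 tables of the whole series with 33557 identifiers each. No unit is written in the tables; FPKM was read from their values and from the use of Cufflinks. Per the submitters' processing notes, TopHat, Cufflinks and the TAIR10 build were used. Tool versions, the merging of replicates, the RNA selection and the strand setting were not given in the sources used here.

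Log2 ratios of FPKM + 1 were formed within a table, which understates changes of low genes. A ratio of -1 or lower counted as lower and a ratio of 1 or higher as higher, among nuclear genes with an FPKM of 5 or more in at least 1 of 4 columns. This is a rule of size, with no test and no p-value, since each group has 1 value. The 86 genes and all lists were chosen with earlier results of these data known. The text names the 12 highest in WT-0, the 12 lowest ratios of each comparison, genes in a list, transcription factors, adjacent members and genes within 0.05 of a threshold, the 5 nearest outside each threshold, and up to 4 genes of a list. All other genes, 9 families, 4 short lists and the neighbourhoods were picked after their values had been seen.

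Depth is not given. The spacing of low values places 5 FPKM on a 1 kb transcript at about 187 fragments in skip-S, 247 and 223 in WT-S and 198 in WT-0. Only 55.4% to 71.3% of low values lay within 0.15 of a whole step, against 30% by chance, so counts were not recovered. By this estimate 13 of the 86 genes rest on under 20 fragments in skip-S, and their ratios are the least precise.

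Exons, lengths, names and upstream sequences came from RefSeq's TAIR10.1 annotation, which held 32810 of the 33557 identifiers and all 86 genes. Its gene models may differ from the models used by the authors. Shared sequence was the share of 50-base words of a transcript found at another locus. Python 3.11.15, pandas 2.3.3, NumPy 2.4.6 and matplotlib 3.10.9 were used.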

Additional observations from a re-analysis of the deposited data

How the results depend on the processing

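The size of the set depends on the pseudocount and the threshold. With 0.1 added to each FPKM, 173 genes met the rule, among them all 86. With 5 added, 22 did, all of them among the 86, while 571 genes were lower with salt and 291 lower in skip. At 1.5-fold 412 genes met the rule, with 2280 lower with salt and 2289 lower in skip. At 3-fold 8 did, all among the 86, with 414 and 156. Centring each comparison on its median gene kept 69 of the 86, and upper-quartile scaling gave 82, of which 67 were among the 86. Centring shifted the skip ratios by 0.06, so the 25 genes within 0.10 of that threshold are the least stable. Counted without the floor, the root hair and iron lists each had 1 gene lower in skip, RHD6 and FIT, and 0 under centring. No paired analysis was possible because each group has 1 merged value, and no replicate could be left out for the same reason. Without the genes of shared sequence 73 remained and without the non-coding genes 82, alternatives chosen after seeing the data. Depth limits the precision of the lowest skip-S levels. Separately, the 1 added to each FPKM keeps a skip ratio from falling far once WT-S is near 1 FPKM.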

Other observations

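Further terpene synthase genes were low in skip without having been 2-fold lower with salt. TPS12 (AT4G13280) had 0.770 FPKM in skip-S, against 3.64 FPKM in WT-S (log2 ratio -1.39), with a salt ratio of -0.48. AT3G29410 had 0.401 FPKM in skip-S, against 3.79 FPKM in WT-S (log2 ratio -1.77), with a salt ratio of -0.58. GA2 (AT1G79460), the ent-kaurene synthase of gibberellin synthesis, had 3.05 FPKM in skip-S, against 8.37 FPKM in WT-S (log2 ratio -1.21), with a salt ratio of 0.50. TPS04 (AT1G61120) had the opposite skip ratio, with 5.79 FPKM in skip-S, against 1.70 FPKM in WT-S (log2 ratio 1.33). Of 12 terpene and triterpene synthase genes above the floor, 6 were lower in skip and 4 lower with salt. Both copies of TPS-CIN, which are not separate measurements, are counted among the 6 and among the 4.

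Phosphorylase superfamily genes, which include relatives of poplar bark storage proteins, numbered 4 above the floor, of which 3 were lower in skip and 2 lower with salt. AT4G24350 had 7.05 FPKM in skip-S, against 20.3 FPKM in WT-S, and 22.4 FPKM in WT-S, against 58.8 FPKM in WT-0. Its neighbour AT4G24340 had 1.95 FPKM in skip-S, against 8.43 FPKM in WT-S (log2 ratio -1.68), with a salt ratio of -0.69. These families were picked after their values had been seen.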
